A study of Mus musculus with 6 samples.

Results

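The genes described here are the Mecom locus and the Prdm family in motor neurons of the mouse lumbar spinal cord on embryonic day 12, compared between medial and lateral motor neurons. Members were taken by gene symbol: 9 symbols were sought (Mecom, Mds1, Prdm1, Prdm2, Prdm8, Prdm12, Prdm13, Prdm14 and Prdm16) among the array rows that the platform's probe table pairs with a single symbol, and 5 of the 9 had such a row among the 14860 genes of the table. These were Mecom, Mds1, Prdm1, Prdm8 and Prdm16, each with 1 row, while Prdm2, Prdm12, Prdm13 and Prdm14 were not analysed here. Mds1 is an older symbol for part of the Mecom locus, so the 5 rows stand for 4 genes.

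The medial group held 3 samples of medial motor neurons and the lateral group 3 samples of lateral motor neurons, with 1 array each. All 6 samples came from HB9::GFP embryos of the line mHB9-Gfp1b at E12, and no treatment was applied. The lumbar cord was dissected into columns, and fluorescent cells were isolated by FACS, so every group depends on a transgene named for HB9, the protein of the gene Mnx1. The labels call the samples biological replicates and do not say whether they came from separate litters, so the p-values below measure the spread between these samples.

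Prdm genes are grouped by the PR domain that they encode, a relative of the SET domain of histone methyltransferases. Most Prdm proteins are zinc finger transcription factors. They repress or activate genes mainly by recruiting corepressors and histone-modifying enzymes, and several act in the choice of neuronal fate. Mecom is read from alternative starts: the upstream start gives the long form with a PR domain (MDS1-EVI1), and an internal start gives the form without it (EVI1), a factor known from blood stem cells and leukaemia. Prdm16, the closest relative of Mecom, is known from brown fat, blood stem cells and neural progenitors.

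The regions around the starts are shown because 2 rows of the array carry the names of the locus, and because the long forms of Mecom and Prdm16 share sequence there. The windows run 5′ to 3′ from 250 bases before to 50 bases after the RefSeq start on build GRCm38.p6, all on the minus strand. Capitals mark runs of at least 15 bases that one window shares with another of the 3. The window of the upstream Mecom start is chr3:30509710-30510009, that of the internal start chr3:30013155-30013454, and that of Prdm16 chr4:154636824-154637123.
Mecom upstream start: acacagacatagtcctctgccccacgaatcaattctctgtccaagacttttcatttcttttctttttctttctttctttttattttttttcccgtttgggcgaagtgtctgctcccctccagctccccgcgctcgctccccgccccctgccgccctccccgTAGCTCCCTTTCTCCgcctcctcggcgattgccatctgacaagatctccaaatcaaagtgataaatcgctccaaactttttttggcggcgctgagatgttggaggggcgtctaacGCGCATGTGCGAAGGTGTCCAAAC
Mecom internal start: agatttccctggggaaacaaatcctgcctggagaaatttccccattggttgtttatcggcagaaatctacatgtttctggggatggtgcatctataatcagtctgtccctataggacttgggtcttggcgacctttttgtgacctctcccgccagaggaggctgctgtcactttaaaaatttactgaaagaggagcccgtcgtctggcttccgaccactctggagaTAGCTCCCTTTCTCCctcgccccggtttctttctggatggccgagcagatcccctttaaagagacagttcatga
Prdm16: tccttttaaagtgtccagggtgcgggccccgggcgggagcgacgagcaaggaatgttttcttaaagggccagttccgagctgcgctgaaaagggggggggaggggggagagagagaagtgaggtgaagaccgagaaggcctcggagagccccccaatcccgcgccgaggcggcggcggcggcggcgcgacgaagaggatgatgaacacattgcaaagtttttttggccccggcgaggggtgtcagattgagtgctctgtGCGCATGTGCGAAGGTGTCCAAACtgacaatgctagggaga

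The starts of the Mecom forms lie 496555 bases apart. The upstream Mecom window and the Prdm16 window share a run of 24 bases, which begins at base 27 of the transcript in Mecom and at base 10 in Prdm16. Among all 32851 windows in the RefSeq table, 2 held this run on either strand, which are these 2. The upstream and internal Mecom windows share a run of 15 bases, found in 0 other windows. In base composition the windows differed: the upstream Mecom window had 19 CG dinucleotides, the internal one 9 and that of Prdm16 24, against a median of 7 over all windows. Of the 6 sought symbols with a window, 7 windows in all, 0 held the homeodomain core TAATTA or the GATA-type word AGATAA on either strand (TAATTA reads alike on both), which 5.29% and 11.2% of all windows hold. At such shares, few or none of 7 windows would hold either word. The upstream Mecom window shown above does hold TGATAA, another GATA-type word. Its share over all windows was not computed. No other spelling of a GATA-type word was searched for, so more may be present in the 7 windows. The E-box CATCTG occurred once in the upstream Mecom window, once in that of Prdm8 and in 17.2% of all windows. It was the only E-box spelling searched for. The run of 24 bases shared by the upstream Mecom and Prdm16 windows holds another, CATGTG, whose share over all windows was not computed. These matches describe letters in a window and show no binding.

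The labels were first compared with lists of genes of medial and lateral identity. These lists were chosen with earlier results of these data known, so the comparison is no independent check. At an adjusted p of at most 0.05, medial motor neurons had higher levels of 6 and a lower level of 1 of 8 genes of medial identity. These 6 were Lhx3, Lhx4, Mnx1, Isl2, Epha3 and Fgfr1. Of 9 genes of lateral identity, 5 were lower there, namely Foxp1, Aldh1a2, Lhx1, Etv4 and Cdh20, and 1 was higher. The exceptions were the zinc finger gene Tshz1, with a log2 difference of −1.67, and the POU factor gene Pou3f1, with 1.14. Lhx3, the LIM homeodomain gene of medial motor neurons, averaged 10.42 ± 0.09 in the medial group, against 7.19 ± 0.10 in the lateral group (log2, SD, n = 3 each). Foxp1, which defines the lateral column, averaged 9.18 ± 0.20 in the medial group, against 12.18 ± 0.02 in the lateral group. Mnx1, the gene behind the sort, was itself 2.67-fold higher in the medial samples. The cholinergic genes Slc18a3, Slc5a7 and Chat were present in both groups, at 12.33, 10.77 and 9.38 in the medial group, against 12.18, 10.92 and 9.09 in the lateral group, and did not pass. The other 4 of 7 general motor neuron genes did: Mnx1 and Isl2 were higher in medial motor neurons, while Prph, which encodes peripherin, and the LIM homeodomain gene Isl1 were lower (log2 differences −1.66 ± 0.16 and −0.64 ± 0.07, SE, limma adjusted p = 0.00434 and 0.00668).

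A level near that of genes of unrelated tissues cannot be told from background, since the table holds no detection calls. Among 25 measured genes of other adult tissues, such as hormone, muscle and milk protein genes, the median level was 5.28 and the highest group mean 7.47 (log2, for Acta1). This upper value is used below as a cautious guide to background and is not a detection limit, because each row has its own background.

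Mecom and Mds1, the rows of the one locus, were both far higher in medial than in lateral motor neurons, whereas none of the other 3 members passed the test. Of the 5 members, 2 passed and 3 did not; both that passed were higher in the medial samples. Over all 23332 rows, 3.07% passed in either direction, 1.13% with a higher and 1.94% with a lower medial level. Both members also differed by at least 1.5-fold, as did 2.69% of the rows in either direction and 1.03% with a higher medial level. In bulk samples such as these, fewer cells of a type and less RNA per cell cannot be told apart.

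Mecom encodes a zinc finger regulator that both represses and activates genes. Its values were 10.74, 10.53 and 10.64 in medial replicates 1, 2 and 3, against 7.25, 7.82 and 7.01 in lateral replicates 1, 2 and 3 (log2). The groups were separated by 2.71 between the lowest medial and the highest lateral sample, well beyond the range within the lateral group, which was 0.81. Mecom averaged 10.64 ± 0.11 in the medial group, against 7.36 ± 0.41 in the lateral group (SD, n = 3 each). The log2 difference was 3.28 ± 0.21 (SE, 95% confidence interval 2.78 to 3.77, limma adjusted p = 0.00102), a 9.71-fold higher level in the medial samples. Only 2 of the 14860 genes had a larger difference in that direction. The lateral mean lay just under the guide to background, so the fold can understate the difference. Lateral replicate 2, at 7.82, was the only lateral sample above the guide.

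The Mds1 row, named for the part of the locus that gives the long form its upstream end, had values of 9.09, 8.26 and 8.51 in medial replicates 1, 2 and 3, against 6.17, 5.89 and 5.85 in lateral replicates 1, 2 and 3. All medial values lay above all lateral values, and here the spread was wider among the medial samples. The row averaged 8.62 ± 0.43 in the medial group, against 5.97 ± 0.17 in the lateral group (SD, n = 3 each). Its log2 difference was 2.65 ± 0.22 (SE, 95% confidence interval 2.12 to 3.18, limma adjusted p = 0.00229), or 6.28-fold, and it took place 9 among the 14860 genes. All 3 lateral values lay under the guide to background, so the fold can understate the difference and the place among genes is approximate.

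Whether the 2 rows differed in the size of their difference was tested on the gap between them within each array. The Mecom value minus the Mds1 value, which carries each row's own response and is no ratio of RNA levels, was 1.65, 2.27 and 2.14 in medial replicates 1, 2 and 3, against 1.08, 1.93 and 1.16 in lateral replicates 1, 2 and 3. These values overlapped, and the gap was 0.63 larger in the medial samples (exact permutation test over samples, two-sided, p = 0.2; the smallest p that 3 against 3 allows is 0.1). This design could not pass a threshold of 0.05, so the test does not say whether the rows differed. All lateral Mds1 values and 2 of the 3 lateral Mecom values lay under the guide to background, so the lateral gaps may largely reflect the background of each row. The files do not give the exons that each row reads, so the values do not say which of the forms was present.

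**Figure D1:**
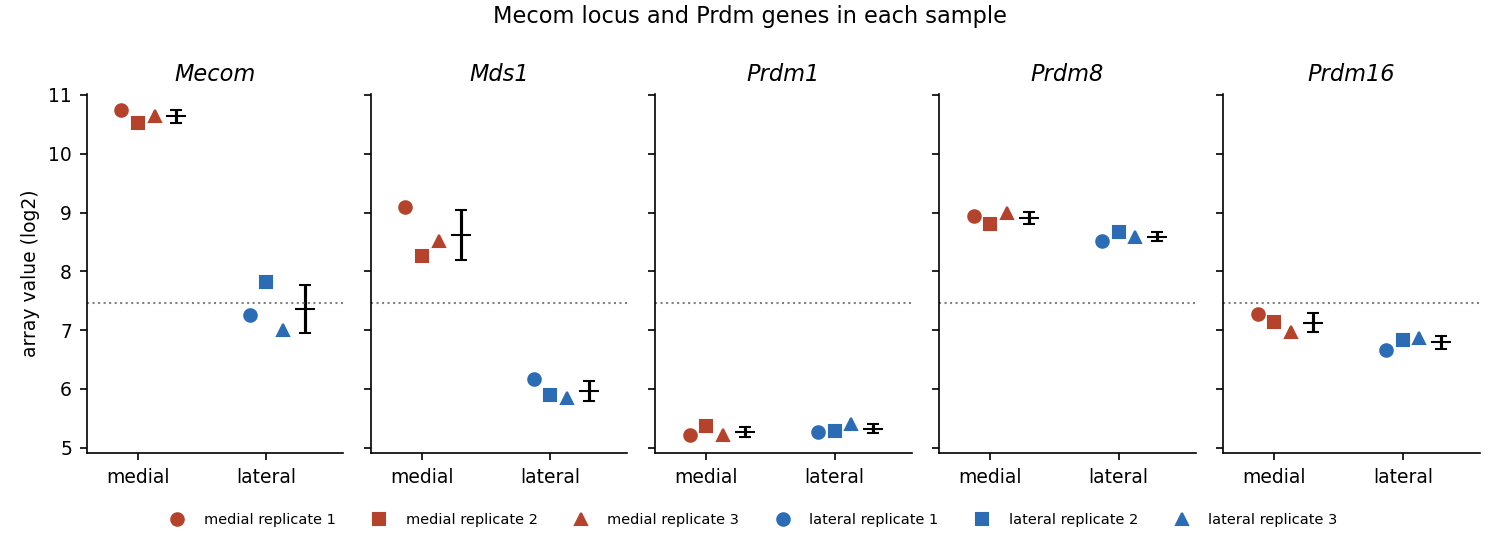
Array values (log2, y axis) of the 5 members in each medial (red) and lateral (blue) sample, with the mean and SD of 3 samples in black and the guide to background, 7.47, as a dotted line. The medial and lateral samples are far apart for Mecom and Mds1, close for Prdm8 and Prdm16, and overlap for Prdm1.

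Prdm8 encodes a repressor that works with the factor Bhlhe22 in the axon development of cortical neurons. Its values were 8.94, 8.80 and 9.0 in medial replicates 1, 2 and 3, against 8.52, 8.67 and 8.58 in lateral replicates 1, 2 and 3. The groups did not overlap, with a gap of 0.14, and every sample lay above the guide to background. The log2 difference was 0.33 ± 0.09 (SE, 95% confidence interval 0.12 to 0.53), or 1.25-fold, with an unadjusted p of 0.00829 and a limma adjusted p of 0.149, so it did not pass.

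Prdm16 encodes the closest relative of Mecom. Its values were 7.28, 7.14 and 6.96 in medial replicates 1, 2 and 3, against 6.67, 6.84 and 6.87 in lateral replicates 1, 2 and 3. The groups did not overlap here either, but the gap was 0.09 and all 6 values lay under the guide to background. The log2 difference was 0.33 ± 0.11 (SE, 95% confidence interval 0.07 to 0.60, limma adjusted p = 0.241), or 1.26-fold, which did not pass.

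Prdm1 encodes Blimp-1, a repressor known from plasma cells and germ cells. Its values were 5.22, 5.37 and 5.22 in medial replicates 1, 2 and 3, against 5.26, 5.29 and 5.41 in lateral replicates 1, 2 and 3. The groups overlapped, and the level was that of genes of other tissues in every sample. The log2 difference was −0.05 ± 0.08 (SE, 95% confidence interval −0.25 to 0.15, limma adjusted p = 0.871). In 4 of the 5 members the groups did not overlap, each with the medial samples higher, where 19.3% of all rows did not overlap and 10.2% did so with the medial samples higher.

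Ordered by their log2 difference, the members ran from Mecom at 3.28 and Mds1 at 2.65 through Prdm16 and Prdm8 at 0.33 each to Prdm1 at −0.05. The differences of members were compared in all 10 pairs by exact permutation tests over samples (two-sided). In 8 of the 10 pairs, those other than Mecom with Mds1 and Prdm8 with Prdm16, the within-array gaps of one group did not overlap those of the other and p was 0.1, the smallest that the design allows (0.125 after Benjamini-Hochberg adjustment over the 10 pairs). No pair could pass a threshold of 0.05, so these tests do not say which members differed. The pairs reuse the same rows, and the share of such gaps among other pairs of genes was not computed. The differences of Mecom exceeded those of Prdm8 and Prdm16 by 2.95 and 2.94 on the log2 scale. The differences of Prdm8 and Prdm16 were apart by 0.01 (exact permutation p = 1), which does not show that they are alike.

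The calls of Mecom and Mds1 held in each of the 6 fits that left out 1 sample. For Mecom the log2 difference then ranged from 3.11 to 3.51 with adjusted p-values from 0.00174 to 0.00908 in limma. The highest value came without lateral replicate 2. For Mds1 it ranged from 2.41 to 2.83 with adjusted p-values from 0.00461 to 0.0172, the lowest without medial replicate 1. Prdm8, at 0.28 to 0.38, and Prdm16, at 0.26 to 0.42, passed in 0 of these 6 fits, with adjusted p-values of at least 0.174 and 0.229.

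**Figure D2:**
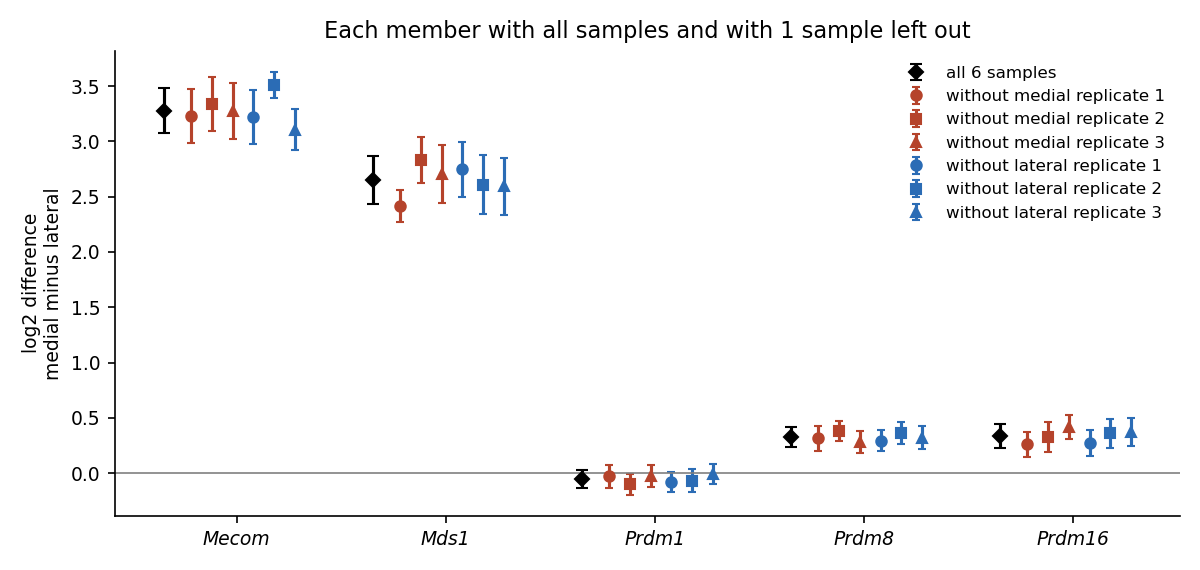
Log2 difference, medial minus lateral (y axis, bars are SE), of each member with all 6 samples (black) and with 1 medial (red) or 1 lateral (blue) sample left out. Mecom stays between 3.11 and 3.51 and Mds1 between 2.41 and 2.83, while the other 3 members stay below 0.5.

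Further Prdm genes with a row did not pass. Prdm9, the histone methyltransferase that places meiotic recombination, averaged 6.11 ± 0.08 in the medial group, against 5.97 ± 0.15 in the lateral group (SD, n = 3 each), under the guide to background. Prdm10 averaged 8.17 ± 0.13 in the medial group, against 8.07 ± 0.15 in the lateral group. Prdm15 averaged 8.40 ± 0.11 in the medial group, against 8.37 ± 0.10 in the lateral group. Their log2 differences were 0.13, 0.10 and 0.02, with limma adjusted p-values of at least 0.676. Zfpm2, which encodes Fog2, a zinc finger cofactor of GATA factors that can carry a PR-like domain, had values of 9.83, 9.58 and 9.64 in medial replicates 1, 2 and 3, against 9.06, 8.70 and 8.71 in lateral replicates 1, 2 and 3. The groups did not overlap, and Zfpm2 was higher by 1.81-fold in medial motor neurons (log2 difference 0.86 ± 0.13, SE, limma adjusted p = 0.0207). That call was lost in 5 of the 6 leave-one-out fits, all but the one without lateral replicate 1, with adjusted p-values up to 0.0854. Of the 4 genes measured on this list, 1 passed as higher and 3 did not pass. Over all rows, 1.13% passed with a higher medial level.

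Prdm proteins act through corepressors and histone-modifying enzymes, and 2 of the 22 measured passed, both with a higher medial level. Of all rows, 3.07% passed in either direction and 1.13% with a higher medial level. The median log2 difference of the 22 was 0.05, against 0.02 over all rows. Tle3, a Groucho corepressor, was 1.46-fold higher (log2 difference 0.55 ± 0.08, SE, limma adjusted p = 0.0186), and Runx1t1, an ETO family corepressor, was 1.58-fold higher (0.66 ± 0.10, adjusted p = 0.0234). Both calls were lost in 5 of the 6 leave-one-out fits, with limma adjusted p-values up to 0.0929 for Tle3, which passed without lateral replicate 1, and up to 0.107 for Runx1t1, which passed without lateral replicate 2. Ctbp1, the corepressor that Mecom and Prdm16 bind, averaged 11.81 in the medial samples with a log2 difference of 0.03 ± 0.07, and Ehmt1, which encodes a histone methyltransferase, differed by 0.07 ± 0.09. Ctbp1 and Ehmt1 are named as examples chosen with their values known. The DNA methyltransferase gene Dnmt3a at 0.37 ± 0.08, the Groucho gene Tle2 at 0.23 ± 0.09 and Dnmt3b at −0.18 ± 0.07 did not pass over all rows.

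The partners and reported targets of Mecom, which come mostly from work on blood cells, had 19 measured genes. Among them, 1 passed with a higher and 0 with a lower medial level, against 1.13% and 1.94% of all rows. A count of 1 does not set this list apart. The median log2 difference was 0.03. Meis1, a homeobox cofactor of Hox proteins, averaged 11.85 ± 0.09 in the medial group, against 11.27 ± 0.13 in the lateral group (SD, n = 3 each), a log2 difference of 0.58 ± 0.10 (SE, limma adjusted p = 0.0317). This call too was lost in 5 of the 6 leave-one-out fits, all but the one without lateral replicate 1, with adjusted p-values up to 0.119. The integrin gene Itga6, the angiopoietin gene Angpt1 and the TGF-beta effector gene Smad3 had log2 differences of −0.46 ± 0.09, −0.70 ± 0.14 and 0.39 ± 0.11 and did not pass (limma adjusted p = 0.0579, 0.0653 and 0.189). Both means of Angpt1 lay under the guide to background, at 4.48 in the medial group, against 5.18 in the lateral group. Gata2, a target of EVI1 in blood stem cells, named after its values were seen, differed by −0.03 ± 0.17 and lay under the guide to background in both groups.

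**Figure D3:**
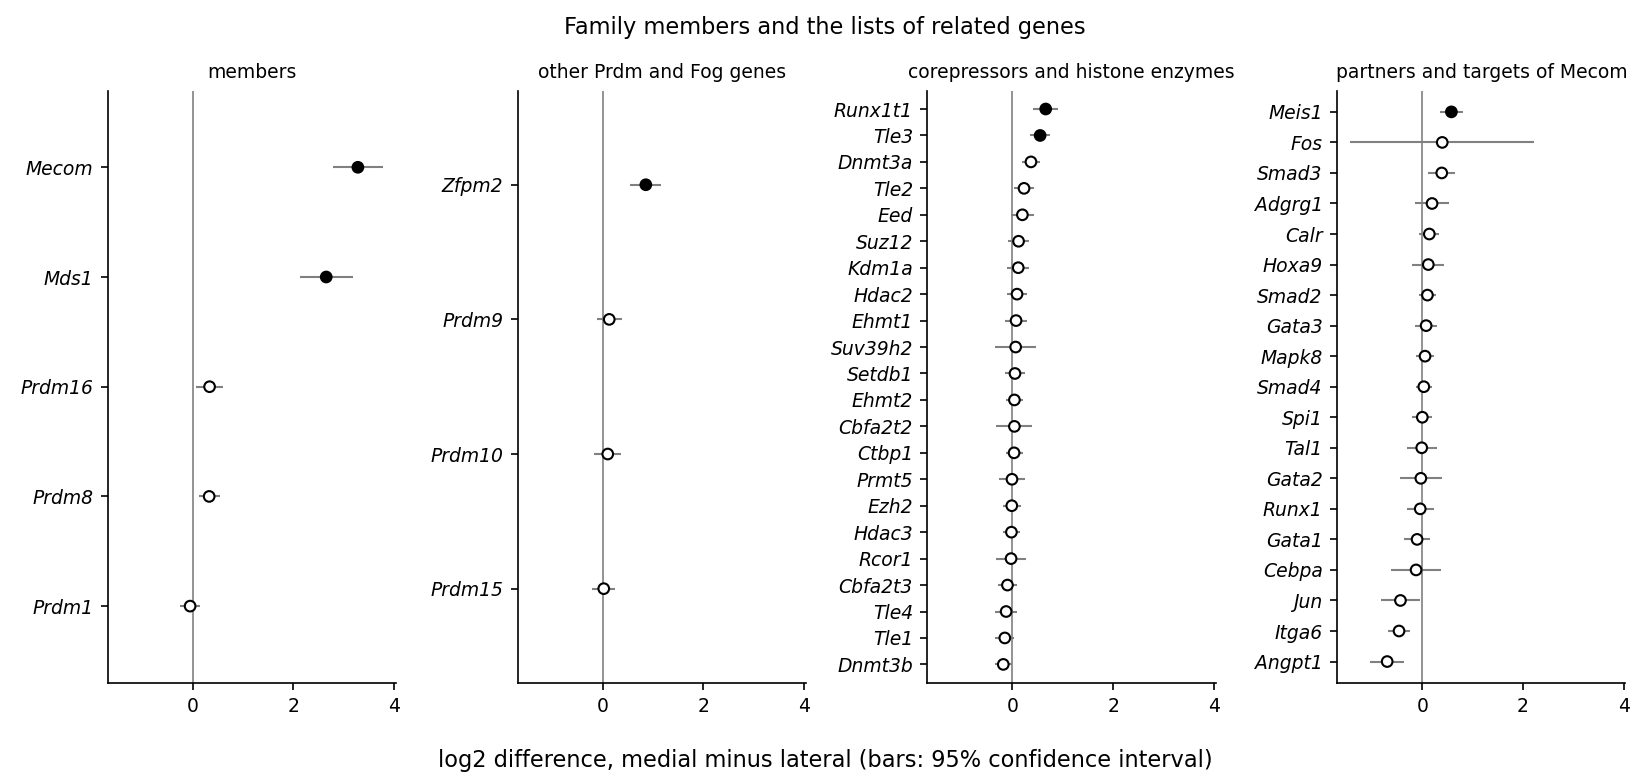
Log2 difference, medial minus lateral (x axis), with its 95% confidence interval, for the 5 members, 4 other family genes, 22 corepressors and histone or DNA modifying enzymes, and 19 partners and targets of Mecom. Filled points passed an adjusted p of 0.05 and open points did not; Mecom and Mds1 stand apart from the others, which lie below 1.

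Of 19 measured partners and targets of the other Prdm factors, 1 passed with a higher and 0 with a lower medial level. These counts stand against 1.13% and 1.94% of all rows and do not set the list apart. The median log2 difference was −0.09. The gene that passed was Isl2, also on the list of medial identity, a LIM homeodomain gene of motor neurons that Prdm14 is reported to activate in zebrafish, with 11.45, 11.40 and 11.56 in medial replicates 1, 2 and 3, against 10.10, 9.78 and 9.81 in lateral replicates 1, 2 and 3. Isl2 was 2.98-fold higher in the medial samples (limma adjusted p = 0.00126), and its call held in each of the 6 leave-one-out fits. The Notch ligand gene Dll1, the coactivator gene Ppargc1a, a partner of Prdm16 in brown fat, and the proneural gene Neurog2 had log2 differences of 0.46 ± 0.12, 0.80 ± 0.24 and 0.35 ± 0.13 and did not pass (limma adjusted p = 0.136, 0.199 and 0.321). In 15 of the 19 genes both group means lay under the guide to background, among them Ptf1a, Tlx3 and Lbx1 of the dorsal interneuron programmes, picked as examples with their values known.

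The genes next to Mecom on chromosome 3 differed less. Of the 6 nearest genes with a row on each side, 12 in all, 0 passed in limma, where 2 had an unadjusted p under 0.05. Of all rows 3.07% passed, so 0 of 12 is near that share and does not set these genes apart. In 3 of the 12 the groups did not overlap, against 19.3% of all rows. Their log2 differences ranged from −0.30 to 0.27. In 8 of the 12 both group means lay at or under the guide to background. Eif5a2, a translation factor gene and the nearest on one side, averaged 7.46 ± 0.20 in the medial group, against 7.76 ± 0.07 in the lateral group (SD, n = 3 each, limma adjusted p = 0.337). Actrt3, an actin-related gene and the nearest on the other side, averaged 6.61 ± 0.07 in the medial group, against 6.66 ± 0.22 in the lateral group. Of the other neighbours, Mynn, Sec62 and Phc3 were above the guide to background, with means of 8.57, 9.99 and 8.64 in the medial group, against 8.29, 9.94 and 8.53 in the lateral group.

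**Figure D4:**
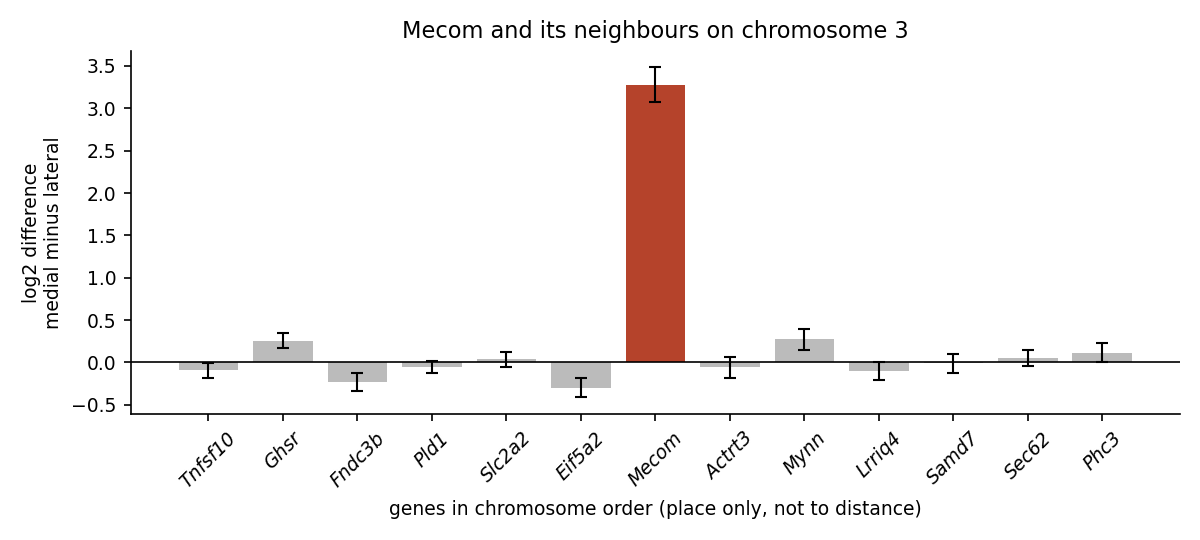
Log2 difference, medial minus lateral (y axis, bars are SE), of Mecom and the 6 nearest measured genes on each side in chromosome order (x axis, not to distance). Mecom stands at 3.28, and its 12 neighbours lie between −0.30 and 0.27.

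The genes whose values ran closest to those of Mecom were ranked by the root mean square distance between gene-centred log2 values over the 6 arrays, among 14859 genes, as a description. Lhx3 was nearest at 0.21, followed by Nxph4, which encodes a neurexin ligand, at 0.31, and Klhl1, a kelch-like gene, at 0.33. Uts2, the peptide gene of urotensin 2, Hoxc13, the semaphorin gene Sema3d, Lhx4, a LIM homeodomain gene of medial motor neurons, and the zinc finger gene Sp8 followed at 0.37, 0.37, 0.38, 0.38 and 0.41. Mds1 took place 10 at 0.46. The distance measures the shared contrast between the groups above all, and the arrays share their samples.

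Within the lateral group, several of these genes shared the pattern of Mecom, highest in lateral replicate 2 and lowest in lateral replicate 3. These genes were picked for likeness to Mecom over the same arrays, the lateral ones included, so a shared lateral pattern is partly built into the choice. Lhx4 had 8.29, 8.81 and 8.09 in lateral replicates 1, 2 and 3, Nxph4 8.02, 8.40 and 7.63, and Klhl1 7.53, 7.77 and 6.90. Hoxc13 did so too, with 7.43, 7.54 and 6.91. Lhx3, with 7.26, 7.23 and 7.08, was not highest in that sample, and neither were Uts2, Sema3d, Sp8 and Mds1. Among the 264 rows called higher in the medial samples, lateral replicate 2 was the highest lateral sample in 34.5%, against 19.1% of all rows. Lateral replicate 1 was the highest more often, in 51.1% of the 264 rows and 49.2% of all rows. The rows called were chosen on the same values. The part of this sample in the lateral level of Mecom was not tested, and without it the log2 difference of Mecom was 3.51.

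**Figure D5:**
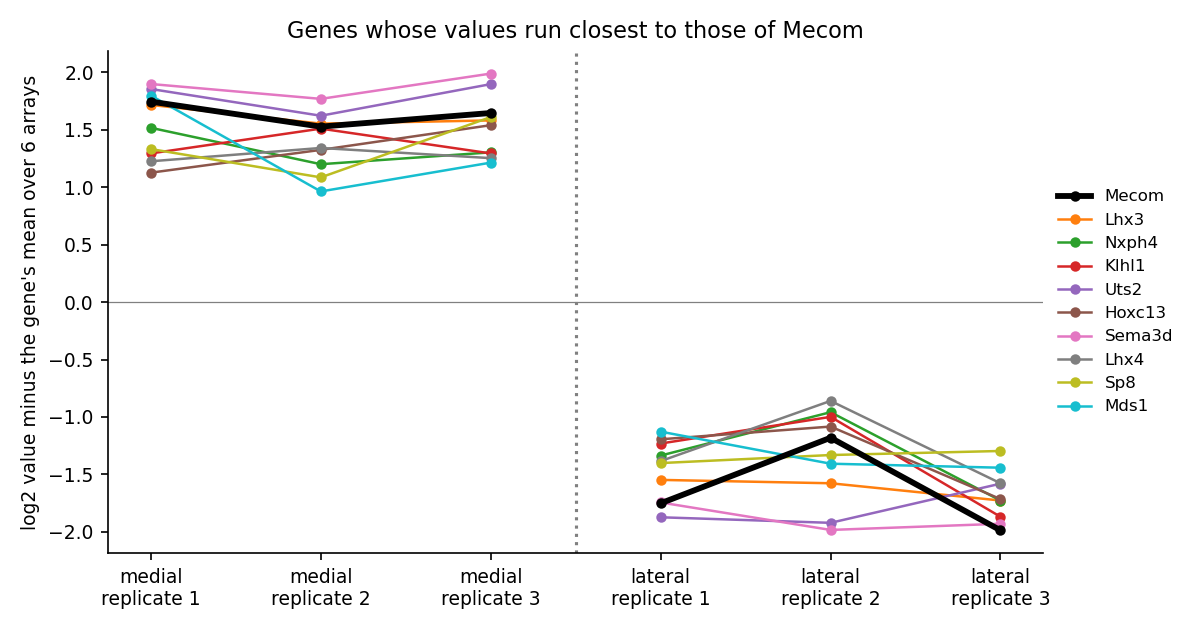
Log2 value minus the gene's mean over the 6 arrays (y axis) in each medial and lateral sample (x axis) for Mecom (black) and the genes named as closest to it, with Mds1; lines join the arrays of a gene within a group and imply no order. All genes lie above 0 in the medial and below 0 in the lateral samples, and Mecom, Nxph4, Klhl1, Hoxc13 and Lhx4 peak among the lateral samples in replicate 2.

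Markers of other cells that can express family members were read beside these results. Mecom is known from endothelial cells. All 8 endothelial markers measured had both group means under the guide to background. Their summed linear level was 261 to 268 in the medial group, against 239 to 261 in the lateral group, and their median log2 difference was −0.01. Pecam1 and Cdh5 averaged 4.96 and 4.66 in the medial group, against 5.08 and 4.77 in the lateral group. Kdr and Emcn went the other way, at 4.40 and 4.05 in the medial group, against 4.31 and 3.95 in the lateral group. Of the 8, Cldn5 passed, at 6.05 ± 0.06 in the medial group, against 5.60 ± 0.04 in the lateral group (SD, n = 3 each, limma adjusted p = 0.0272), a call lost in each of the 6 leave-one-out fits (limma adjusted p up to 0.123). Of 10 progenitor markers, a cell type in which Prdm16 is known, 1 passed, Sox2, at 6.31 ± 0.16 in the medial group, against 5.68 ± 0.12 in the lateral group (limma adjusted p = 0.0376), which was lost in the same 6 fits (adjusted p up to 0.113). In 8 of the 10 both means lay under the guide, while Sox1 and Fabp7 were above it. The summed level of all 10 was 1191 to 1302 in the medial group, against 1001 to 1324 in the lateral group. Fabp7 had 8.69, 8.74 and 8.72 in medial replicates 1, 2 and 3. In lateral replicates 1, 2 and 3 Fabp7 had 7.87, 9.03 and 7.66, the same order as Mecom, and it did not pass (limma adjusted p = 0.603). Sox1 was highest in lateral replicate 3, with 7.75, 7.83 and 8.14. Of 8 blood and macrophage, 6 germ cell, 9 mesenchyme, 12 interneuron and 6 sensory neuron markers measured, 0 passed in limma. There Prrx1, Ntrk2 and Ntrk3 had an unadjusted p under 0.05. Both group means lay at or under the guide in 7, 5, 9, 10 and 3 of these, in the same order. The highest was Ntrk2, a sensory marker, at 10.8 in the medial group, against 10.5 in the lateral group. Over all rows, 3.07% passed in either direction, beside 1 of the 8 endothelial and 1 of the 10 progenitor markers. The part of other cells in the results was not tested.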

How the data were processed

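Samples were fragmented and biotinylated with a kit for whole transcripts, per the labels' protocols, and hybridised to 1 array per sample. The authors deposited a table of 23332 rows by 6 samples, whose unit was taken to be log2 from its range of 2.49 to 14.1. How the values were summarized, background-corrected and normalized is not given in the sources used here, so any centring between arrays stays unknown. The array medians lay between 6.73 and 6.84. The build is mm9, per the submitters' processing notes.

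Differences were fitted on all rows with limma 3.58.1 in R 4.3.3 (lmFit, eBayes, two-sided, no block, 3 samples per group), and p-values were adjusted over all rows by Benjamini-Hochberg, with 0.05 as the threshold. Errors of differences are SE and those of means are SD. Gene names came from the probe table of the platform, with current symbols from RefSeq (GRCm38.p6) for 14941 of 14996 single-symbol rows, and 1 row per gene was kept, the one with the highest mean. Another 1019 rows had several symbols, 0 of them with a member, and 7317 were not listed. All were tested. The program PowerExpress, which the series design names, was not run. Exact permutation tests used scipy 1.17.1. Promoter windows are RefSeq's.

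Named were all members, from 15 lists of 187 genes those past the threshold and up to 3 others with the smallest p (of the column identity and marker lists, the text names those past the threshold and only some of the others), the 6 nearest measured genes on each side of Mecom, and the 8 genes closest to it. The members and lists were chosen with earlier results of these data known. Data were simulated with the rows' own means, the variances as moderated by limma and independent normal noise. The fit recovered 85% of 100 rows changed by 1 on the log2 scale and 99% of 100 changed by 2. It also called 11 unchanged rows, 5.64% of its calls. Moderation draws variances toward a common value, so noisy rows were simulated with less noise than measured. The number of arrays limits the precision. Samples shared at most 7 identical values. Alternatives were the replicate block, quantile normalization, median centring, an intensity trend with a robust prior, a filter on low rows, single-symbol rows, 1 row per gene and leaving out each sample.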

Additional observations from a re-analysis of the deposited data

How the results depend on the processing

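The calls of Mecom and Mds1 held in all 7 alternatives that kept the 6 samples and in the 6 fits with 1 sample left out, and the count of members called was 2 in each. Mecom ranged from 3.25 to 3.29 on the log2 scale over those 7 (limma adjusted p from 3.64e-05 to 0.0133) and Mds1 from 2.64 to 2.66 (1.17e-04 to 0.0116). Prdm8 passed in 0 of these 7 (adjusted p from 0.063 to 0.231) and Prdm16 in 0 (0.118 to 0.318), and the sign of Prdm1 stayed negative in the 6 of them that kept its row, which the filter on low rows removed. The count of rows called, 717, ranged from 326 to 538 without 1 sample, and the 628 with a fold of at least 1.5 from 326 to 517; with all samples kept they ranged from 481 to 1033 and from 477 to 710. The gap between the Mecom and Mds1 rows, 0.63, ranged from 0.47 to 0.90 without 1 sample, an alternative chosen after seeing the data. With the replicate number as a block, 481 rows passed, and Mecom had a limma adjusted p of 0.0133 and Mds1 of 0.0116. Tle3, Runx1t1, Cldn5 and Sox2 no longer passed (limma adjusted p = 0.079, 0.0973, 0.0923 and 0.127). The block lowered the SE of Mds1 from 0.22 to 0.13, while that of Mecom stayed at 0.21. The deviations of same-numbered samples correlated with r of 0.35, 0.07 and 0.02 for replicates 1, 2 and 3. Those of differently numbered samples had r from −0.37 to 0.30. These values do not settle whether the numbers pair the samples, and the main fit had no block. Cldn5 also failed with an intensity trend and robust prior. Of the alternatives that kept all samples, Dnmt3a passed in 5 of 7, Itga6 in 6 of 7 and Angpt1, whose row the filter removed, in 4 of 6. The table holds no detection calls, so low levels, among them those of Prdm1, Prdm16, the 3 lateral samples for Mds1 and 2 of the 3 for Mecom, cannot be told from background.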
